A study of Mus musculus with 36 samples.

Results

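Cell cycle and proliferation genes are described here as 40 named genes of DNA replication and mitosis, chosen by symbol, among 49568 gene symbols of a count table from ligated mouse carotid arteries. By role, 23 members act in mitosis, 14 in S phase, and 3 (E2f1, Foxm1 and Mybl2) are transcription factors of the cycle. All 40 passed the filter on low counts that left 18628 genes in the 36 libraries. Each library came from a left carotid artery collected 14 days after ligation, an operation that ties the vessel and makes the wall remodel, and every group was ligated. How far flow fell is not stated here. Mice were of the inbred strains C57BL/6J (B6) or 129X1/SvJ (129X1). They received vehicle (Veh, 2 mL/kg/day), the angiotensin receptor blocker valsartan (Val, 27 mg/kg/day) or, at 60 mg/kg/day, sacubitril/valsartan (Sac/val), which adds an inhibitor of the peptidase neprilysin. Dosing was prophylactic (P, 16 days, from 2 days before the operation) or therapeutic (T, 7 days, from day 7 after it). That makes 12 groups of 3 libraries, named for example B6 Veh-P. The labels gave no age or sex, and no unligated artery was among the samples.

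Cells that divide copy their DNA in S phase and then separate the copies in mitosis. E2F factors switch on S-phase genes such as the Mcm helicase subunits, and a later wave driven by B-MYB (encoded by Mybl2) and FOXM1 switches on mitotic genes through CCAAT boxes and a promoter element called CHR. In a ligated artery, smooth muscle cells and incoming or resident leukocytes can divide, while in the thymus, which lies near the great vessels, immature T cells divide at a high rate. Rag1 encodes part of the recombinase that cuts antigen receptor genes and marks immature lymphocytes, so it served to separate libraries with thymus transcripts from the others.

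RefSeq held a promoter window for 33 of the 40 members, spanning 250 bases before to 50 bases after the gene start (build GRCm38.p6). The letters searched, on both strands, were TTTGAA or TTCGAA for the CHR, CCAAT for the CCAAT box, and for the E2F site TTTGGCGC or TTTCCCGC or TTTGCCGC or TTTCGCGC. A CHR was found in 15 of 19 mitosis windows (78.9%) and in 2 of 12 S-phase windows (16.7%), against 19.5% of the 27025 genes with a window (the most upstream one for each gene). CCAAT boxes were in 17 of 19 mitosis windows (89.5%) and 8 of 12 S-phase windows (66.7%), against 38% of all. An E2F site was in 1 of 19 mitosis windows (5.26%) and 6 of 12 S-phase windows (50%), against 2.33% of all. Neither transcription factor with a window (E2f1 and Mybl2) held any of the letters. The E2f1 window (chr2:154569377-154569676) lay wholly inside the gene span used here (chr2:154559407-154569892), so the lack of matches there says little about its promoter. The windows of Cdc6 and Mcm7 also lay wholly inside their gene spans. The windows of 4 mitosis genes and 2 S-phase genes that carry the results are shown 5′ to 3′ on the strand of the gene, with the matched letters in capitals. They are Mki67 (chr7:135716330-135716629, minus strand), Top2a (chr11:99024140-99024439, minus strand), Ccnb2 (chr9:70421505-70421804, minus strand), Bub1b (chr2:118597961-118598260, plus strand), Mcm5 (chr8:75109259-75109558, plus strand) and Mcm6 (chr1:128359656-128359955, minus strand).
Mki67: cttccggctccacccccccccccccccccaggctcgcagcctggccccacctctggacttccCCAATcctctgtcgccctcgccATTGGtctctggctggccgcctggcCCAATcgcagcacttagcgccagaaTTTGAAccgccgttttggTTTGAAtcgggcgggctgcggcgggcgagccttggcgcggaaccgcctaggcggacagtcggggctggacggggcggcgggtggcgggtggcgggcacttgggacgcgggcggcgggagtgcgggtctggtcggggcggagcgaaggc
Top2a: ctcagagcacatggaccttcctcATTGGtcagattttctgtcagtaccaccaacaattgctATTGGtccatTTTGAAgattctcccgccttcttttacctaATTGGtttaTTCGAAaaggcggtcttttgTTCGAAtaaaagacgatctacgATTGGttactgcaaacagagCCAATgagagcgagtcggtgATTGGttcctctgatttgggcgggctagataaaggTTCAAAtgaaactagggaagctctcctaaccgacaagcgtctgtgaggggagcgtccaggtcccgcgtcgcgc
Ccnb2: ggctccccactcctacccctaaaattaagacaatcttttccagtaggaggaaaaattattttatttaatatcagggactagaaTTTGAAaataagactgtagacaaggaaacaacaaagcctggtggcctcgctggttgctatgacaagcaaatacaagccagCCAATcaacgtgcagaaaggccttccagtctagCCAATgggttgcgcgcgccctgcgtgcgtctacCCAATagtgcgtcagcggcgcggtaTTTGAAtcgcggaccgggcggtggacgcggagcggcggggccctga
Bub1b: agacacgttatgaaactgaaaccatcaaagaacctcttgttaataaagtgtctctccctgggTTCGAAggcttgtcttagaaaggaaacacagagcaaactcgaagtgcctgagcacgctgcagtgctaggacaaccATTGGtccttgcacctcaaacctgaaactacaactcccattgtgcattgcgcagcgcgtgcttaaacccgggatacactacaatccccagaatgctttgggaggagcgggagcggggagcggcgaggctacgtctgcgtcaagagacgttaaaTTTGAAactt
Mcm5: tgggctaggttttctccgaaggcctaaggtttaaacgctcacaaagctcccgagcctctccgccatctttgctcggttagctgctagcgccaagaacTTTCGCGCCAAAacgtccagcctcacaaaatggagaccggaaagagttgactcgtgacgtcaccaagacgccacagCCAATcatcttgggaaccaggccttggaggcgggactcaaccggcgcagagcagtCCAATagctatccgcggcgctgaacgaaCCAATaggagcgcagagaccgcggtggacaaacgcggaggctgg
Mcm6: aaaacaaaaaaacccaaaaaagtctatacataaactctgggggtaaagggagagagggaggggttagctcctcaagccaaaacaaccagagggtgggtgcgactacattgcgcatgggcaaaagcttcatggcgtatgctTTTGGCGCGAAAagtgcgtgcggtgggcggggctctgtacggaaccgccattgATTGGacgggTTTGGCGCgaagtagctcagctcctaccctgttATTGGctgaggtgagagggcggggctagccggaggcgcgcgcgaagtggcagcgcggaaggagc
The 4 mitosis windows held 2 to 4 CHR matches and 1 to 6 CCAAT boxes each, and no E2F site. Mcm5 held 3 CCAAT boxes and 2 E2F matches, and Mcm6 held 2 and 3, with no CHR in either. One pair of E2F matches in Mcm5 and one pair in Mcm6 overlap on opposite strands, and TTCGAA reads the same on both. A match is a run of letters and was not tested as a binding site.

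Total counts per library were 18.96 M at the lowest, 22.78 M at the median and 28.97 M at the highest. Levels are given as CPM (counts relative to the library's total), scaled with TMM factors. Smooth muscle markers were found in all 36 libraries, with Myh11 at 40.5 to 672 CPM and Acta2 at 53.1 to 1542 CPM. Both minima were in 129X1 Val-P replicate 3, where summed smooth muscle markers were at 197 CPM and summed skeletal muscle markers at 16700 CPM. Rag1 ran from 0.0411 to 1590 CPM, and 16 libraries lay at or above 10 CPM. Just inside that limit was a 129X1 Val-T library at 15.1 CPM, where Mki67 was at 25.1 CPM, and just outside it a B6 Sac/val-P library at 8.00 CPM, where Mki67 was at 19.8 CPM. Thymic epithelium markers separated the same libraries, since Prss16 was at 16.4 to 998 CPM in the 16 and at 0.0447 to 9.69 CPM in the other 20. The summed thymocyte list, which includes Rag1 itself, was at 211 to 7269 CPM in the 16 and at 49.4 to 208 CPM in the 20. Its nearest values were 210.8 CPM (129X1 Val-T replicate 2, Rag1 at 15.1 CPM) and 208.4 CPM (129X1 Veh-T replicate 2, Rag1 at 0.940 CPM). That gap is smaller than the Rag1 level of the former, so the sum does not separate the classes apart from Rag1. The class was unevenly spread over the design, holding 12 of 18 129X1 but 4 of 18 B6 libraries, 10 of 18 therapeutic but 6 of 18 prophylactic libraries, and 6, 6 and 4 of 12 under Veh, Val and Sac/val. All 3 libraries of 129X1 Val-T were in it, and no library of B6 Veh-P, B6 Sac/val-P or B6 Sac/val-T was. Other neck tissue also varied, with the thyroid gene Tg at up to 39820 CPM and the B-cell gene Ms4a1 at up to 42.8 CPM. Summed skeletal muscle markers ran from 6.26 to 23850 CPM, and summed smooth muscle markers from 197 to 3376 CPM. In bulk tissue, fewer cells of a type and less RNA per cell cannot be told apart.

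The members were at a low level in the libraries below 10 CPM of Rag1 and spread widely in the others. Mki67, a chromosome surfactant used as a general label of cycling cells (chr7:135689784-135716361), was at 2.56 to 33.4 CPM (median 20.8) in the 20 libraries below 10 CPM of Rag1 and at 25.1 to 597 CPM (median 121) in the 16 above. Top2a, the topoisomerase that untangles chromosomes before they separate (chr11:98992943-99024189), was at 3.28 to 31.0 CPM (median 18.6) below and 22.02 to 665 CPM (median 133) above. For both genes the ranges overlapped only at the edge. Mcm5, a subunit of the replicative helicase, ran from 5.79 to 19.3 CPM (median 13.2) below and from 17.4 to 194 CPM (median 55.4) above. Rrm2, the regulated subunit of the enzyme that makes deoxynucleotides, was at 3.35 to 15.5 CPM (median 9.06) below and did not overlap with the upper class, at 16.4 to 290 CPM (median 78.2). E2f1, which drives entry into S phase, had nearly the same median in both classes when the strains were pooled, 4.75 to 23.4 CPM (median 13.6) below and 8.31 to 39.7 CPM (median 13.2) above. The lower class was mostly B6 and the upper mostly 129X1. Within each strain its median was higher above the limit, at 24.95 against 16.1 CPM in B6 and 11.95 against 7.27 CPM in 129X1. Summed over the 40 members, the level was 194 to 664 CPM (median 449) below and 473 to 6172 CPM (median 1515) above.

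**Figure D1:**
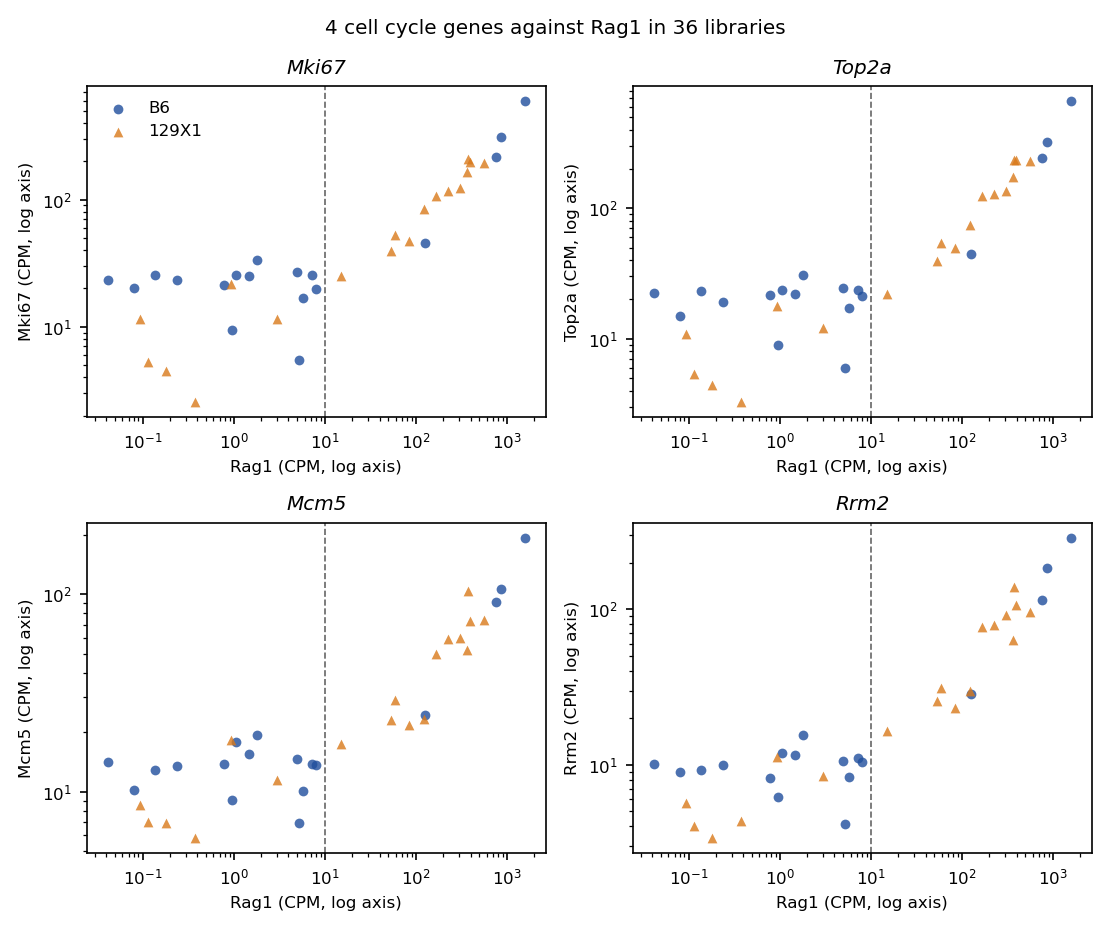
Level of Mki67, Top2a, Mcm5 and Rrm2 (CPM, log axis) against Rag1 (CPM, log axis) in the 36 libraries, coloured by strain, with the 10 CPM limit as a dashed line. Left of the line the points lie flat over the whole range of Rag1, and right of it they climb, with Mki67 going from 25.1 to 597 CPM.

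Per kilobase of exon, the order of the members named here also differed between the classes. Below the limit the highest median of the members compared here was that of Pcna, the sliding clamp of DNA polymerase, at 18.98 CPM per kilobase, followed by Mcm6 at 7.20 and E2f1 at 4.30. Members left out of this ranking lay between Mcm6 and E2f1, such as Mcm3 at 5.81, Mcm4 at 5.77 and Mcm7 at 5.595. Ccnb2 (cyclin B2), Mcm5 and Rrm2 were close together at 3.57, 3.30 and 3.27 CPM per kilobase, and Mki67, Top2a and Bub1b were at 2.07, 2.06 and 2.00. The ranges of neighbours in that order overlapped. Above the limit the medians were 30.02 CPM per kilobase for Pcna, 28.2 for Rrm2, 17.6 for Ccnb2, 14.7 for Top2a, 13.9 for Mcm5, 12.7 for Mcm6, 12.0 for Mki67, 8.02 for Bub1b and 4.17 for E2f1. Pooled over strains, Pcna and Mcm6 led among these genes where Rag1 was low. Where Rag1 was high, Rrm2, Ccnb2 and Top2a stood above Mcm6. So did members left out of the ranking, such as Mcm7 at 15.8 and Mcm3 at 15.3. The strains were mixed unevenly, since 14 of the 20 libraries below were B6 and 12 of the 16 above were 129X1. Below the limit Mcm6 had a median of 36.9 CPM in B6 and 6.91 CPM in 129X1. In 129X1 that was under Mcm5 (7.78 CPM) and E2f1 (7.27 CPM), both with shorter exons, so the strains did not share this order. The ratio of summed S-phase to summed mitosis CPM was 1.06 to 3.05 (median 1.39) in the 20 libraries and 0.633 to 1.43 (median 0.789) in the 16.

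Within the 16 libraries with thymus transcripts, all 40 members rose with Rag1. The test was edgeR's quasi-likelihood fit of each gene on log2 Rag1 with strain as a term, adjusted by Benjamini-Hochberg over 17541 genes, with 0.05 as the limit. In that fit 26.3% of genes passed in either direction and 14.6% rose. The median change of the members was 0.58 log2 units per doubling of Rag1, against -0.02 for all genes, and 3 groups of members can be ordered by it: mitosis at 0.64, transcription factors at 0.57 and S phase at 0.43. Rag1 itself had a slope of 0.99. A slope of 1 would mean that a gene doubled whenever Rag1 did.

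The steepest members were mitotic. Top2a rose by 0.78 log2 units per doubling of Rag1 (SE 0.06, adjusted p = 2e-07, edgeR quasi-likelihood). Kif11, the motor that pushes spindle poles apart, rose by 0.76 (SE 0.06), and Bub1b, a spindle checkpoint protein, by 0.75 (SE 0.06). Cenpe, a kinetochore motor, rose by 0.73, the checkpoint kinase gene Bub1 by 0.71, Mki67 by 0.71, the kinetochore gene Cenpf by 0.70 and Kif20a, a cytokinesis motor, by 0.60. Among S-phase members, Rrm2 rose by 0.66 (SE 0.08), Mcm5 by 0.55 (SE 0.07), Mcm6 by 0.51 (SE 0.05) and Pcna by 0.35 (SE 0.06). The shallowest were Gins2, a helicase cofactor, at 0.24 (SE 0.07, edgeR adjusted p = 0.0172) and E2f1 at 0.18 (SE 0.05, edgeR adjusted p = 0.0225). E2f1 therefore changed least with thymus transcripts among the 40.

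**Figure D2:**
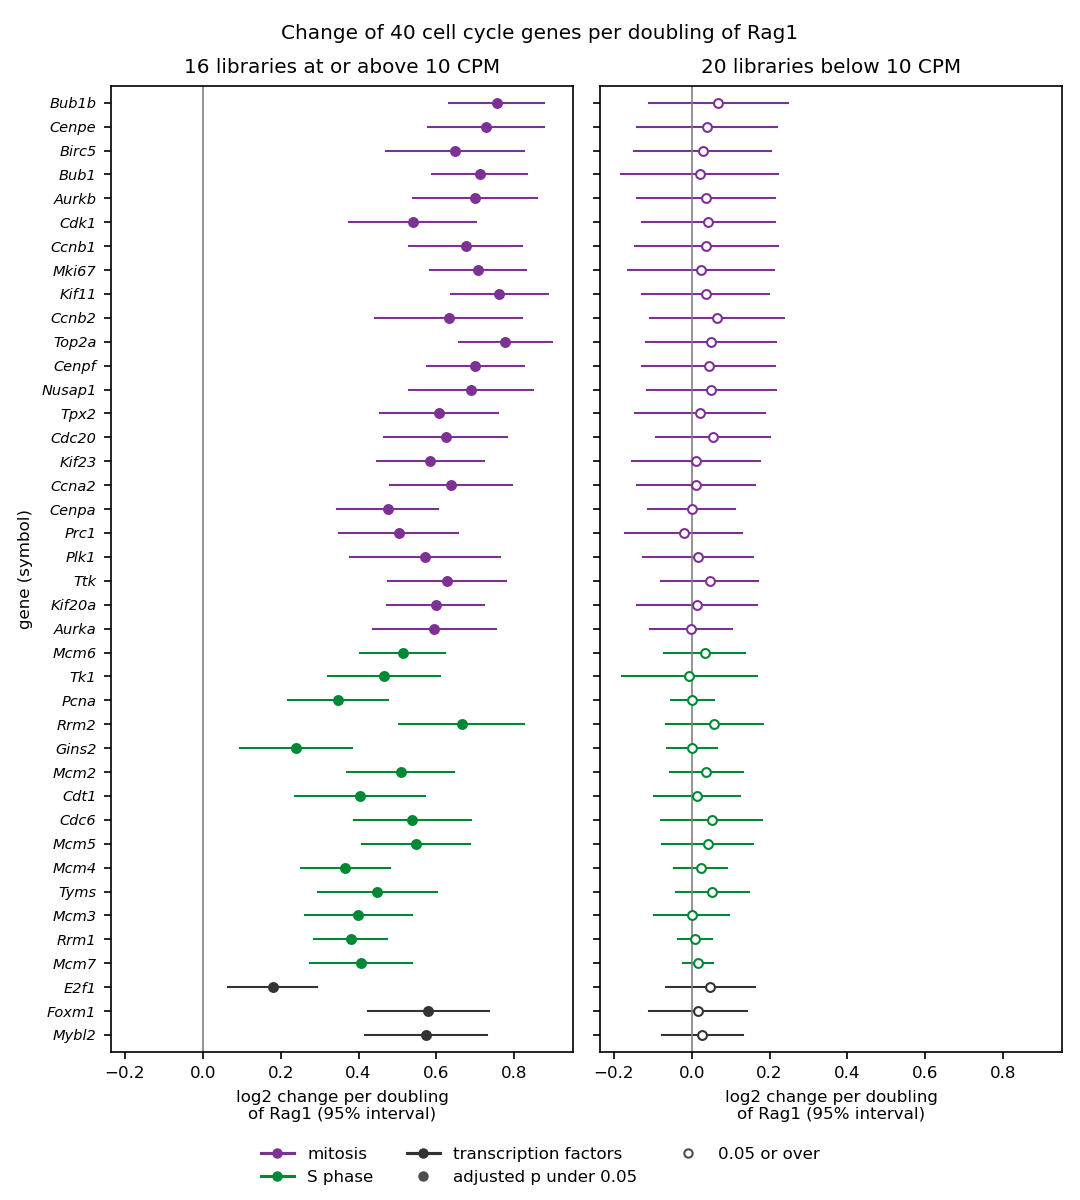
Change of each of the 40 members per doubling of Rag1 (log2 units, points, with 95% intervals) in the 16 libraries with Rag1 at 10 CPM or more (left) and the 20 below (right), filled where the adjusted p was under 0.05. All 40 points are filled on the left, between 0.18 and 0.78, and none on the right, where they lie between -0.02 and 0.07.

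A single library held the top value of every member in this class. It was a B6 Val-P library with the highest Rag1 (1590 CPM) and a summed member level of 6172 CPM, and without it all 40 still rose, with a median of 0.56. The count was 38 without a B6 Veh-T library (replicate 3), whose Tg level was 39820 CPM, and 40 when any other library was left out. Of the other lists, 9 of 10 thymocyte and 4 of 4 thymic epithelium markers rose (medians 0.85 and 0.61), and 0 of 7 macrophage and 0 of 6 B-cell markers passed. The thymocyte list includes Rag1, whose slope on itself was fixed near 1 in advance and which enters that count and median. Which thymic cells carried the members' RNA was not tested.

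Other genes of the cycle, from lists that do not overlap with the members, behaved alike for the machinery and less uniformly for its controls. All 25 other mitosis genes and all 22 other S-phase genes rose per doubling of Rag1, by 0.72 for Ncapg (a condensin subunit), 0.72 for Ect2 (a cytokinesis factor), 0.57 for Pole (DNA polymerase epsilon) and 0.59 for Brca1. Of 12 G1 cyclins, kinases and phosphatases, 9 rose, such as Cdc25c (0.73), Ccnd3 (0.45) and Ccne1 (0.42). Of 13 pocket proteins and E2F factors, 9 rose, led by E2f2 (0.79), E2f8 (0.66) and Rbl1 (0.40), and 1 fell. Among 7 CDK inhibitors, Cdkn2d (0.29), Cdkn1b (0.11) and Cdkn2c (0.13) rose, and Cdkn1c and Cdkn2b fell by 0.21 each.

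At equal Rag1 in this class, no member differed between the strains by edgeR's quasi-likelihood test, while 10.0% of 17541 genes did. DESeq2 also called 0, and 4 members were under an unadjusted p of 0.05: Pcna, Mcm6 and E2f1, lower in 129X1, and Ttk, higher. Pcna had the smallest p, at -0.61 log2 units in 129X1 (SE 0.23, adjusted p = 0.113). Mcm6 stood at -0.49 (SE 0.19), E2f1 at -0.54 (SE 0.21) and Ttk, a checkpoint kinase, at 0.61 (SE 0.27). Mki67 was at 0.22 (95% interval -0.24 to 0.68), Top2a at 0.36 (-0.08 to 0.81), Mcm5 at 0.14 (-0.40 to 0.67) and Rrm2 at 0.21 (-0.39 to 0.81). Only 4 B6 libraries entered, and the median half-width of the 95% interval was about 0.55 log2 units. That interval is not adjusted for the 17541 genes, and the larger estimates of Pcna and Ttk did not pass.

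Below 10 CPM of Rag1 the members did not follow it. By edgeR's quasi-likelihood test 0 of 40 passed, none was under an unadjusted p of 0.05 and DESeq2 called 0, against 0.0237% of 16865 genes (4 genes). The median was 0.03 log2 units per doubling, and the smallest p belonged to Tyms, thymidylate synthase (0.05, SE 0.04). Mki67 changed by 0.02 (95% interval -0.16 to 0.21), Top2a by 0.05 (-0.12 to 0.22), Mcm5 by 0.04 (-0.08 to 0.16) and Rrm2 by 0.06 (-0.07 to 0.18). The library with the least Rag1, a B6 Veh-P library at 0.0411 CPM, had Mki67 at 23.5 CPM, and the B6 library at 8.00 CPM had it at 19.8 CPM. Of other genes of immature T cells, Ptcra was at 0 to 0.487 CPM, Rag2 at 0 to 1.06 CPM and Dntt at 0.0447 to 7.56 CPM (median 0.999) in these 20 libraries. Dntt was among the 4 genes that passed there (Rag1 itself is another), and it rose by 0.72 per doubling (SE 0.11, edgeR adjusted p = 0.00875), so low levels of such transcripts were present in this class too.

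In those 20 libraries, cell cycle genes were lower in 129X1 than in B6. The fit had strain, regimen and treatment as additive terms, with 14 B6 and 6 129X1 libraries, and 31 of 40 members fell, none rose. Of all 16865 genes, 32.6% passed in either direction and 16.3% were lower in 129X1. The median difference was -0.97 log2 units over the members and -0.01 over all genes, and all 40 estimates were below 0. All 23 mitosis members fell (median -1.19), 7 of 14 S-phase members fell (median -0.50), and of the transcription factors E2f1 fell. DESeq2 called 32.

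The strongest calls were in S phase. Mcm6, a helicase subunit (chr1:128331590-128359664, the window with 3 E2F matches), was at 4.75, 4.94, 5.46, 8.37, 8.89 and 14.6 CPM in the 6 129X1 libraries and at 21.2 to 45.5 CPM (median 36.9) in B6. No 129X1 library reached the lowest B6 library. The difference was -2.24 log2 units (SE 0.21, edgeR adjusted p = 4.21e-07), or 0.211 times the B6 level. Pcna (chr2:132249162-132253314) was at 21.3 to 32.4 CPM (median 25.9) in 129X1 and 35.2 to 56.1 CPM (median 51.7) in B6, again without overlap, a difference of -0.89 (SE 0.11, edgeR adjusted p = 2.11e-05). These were the 2 members of 40 whose values did not overlap between the strains, a share close to that over all genes (3.78%). Gins2 fell by 0.63 (SE 0.14), Mcm2 by 0.63 (SE 0.17), Mcm4 by 0.37 (SE 0.12), Rrm1 by 0.24 (SE 0.07) and Tk1, thymidine kinase, by 1.07 (SE 0.34).

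Other S-phase members, some in the same complex as Mcm6, did not pass. Mcm5 was at 5.79 to 18.3 CPM (median 7.78) in 129X1 and 6.96 to 19.3 CPM (median 13.7) in B6, which overlap over nearly their whole range. Its difference was -0.46 (SE 0.20, edgeR adjusted p = 0.0876). Rrm2 lay at the limit, with -0.66 (SE 0.25) and an edgeR adjusted p of 0.05003, which ran from 0.0122 to 0.149 when each library was left out in turn. Mcm7 was at -0.08 (95% interval -0.23 to 0.06), Mcm3 at -0.25 (-0.60 to 0.10), Tyms at -0.32, the origin licensing genes Cdc6 and Cdt1 at -0.47 and -0.52, and the transcription factors Foxm1 and Mybl2 at -0.48 and -0.31. The helicase subunits, which act as a hexamer, therefore ranged from -2.24 (Mcm6) to -0.08 (Mcm7), and the difference between subunits was not tested.

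**Figure D3:**
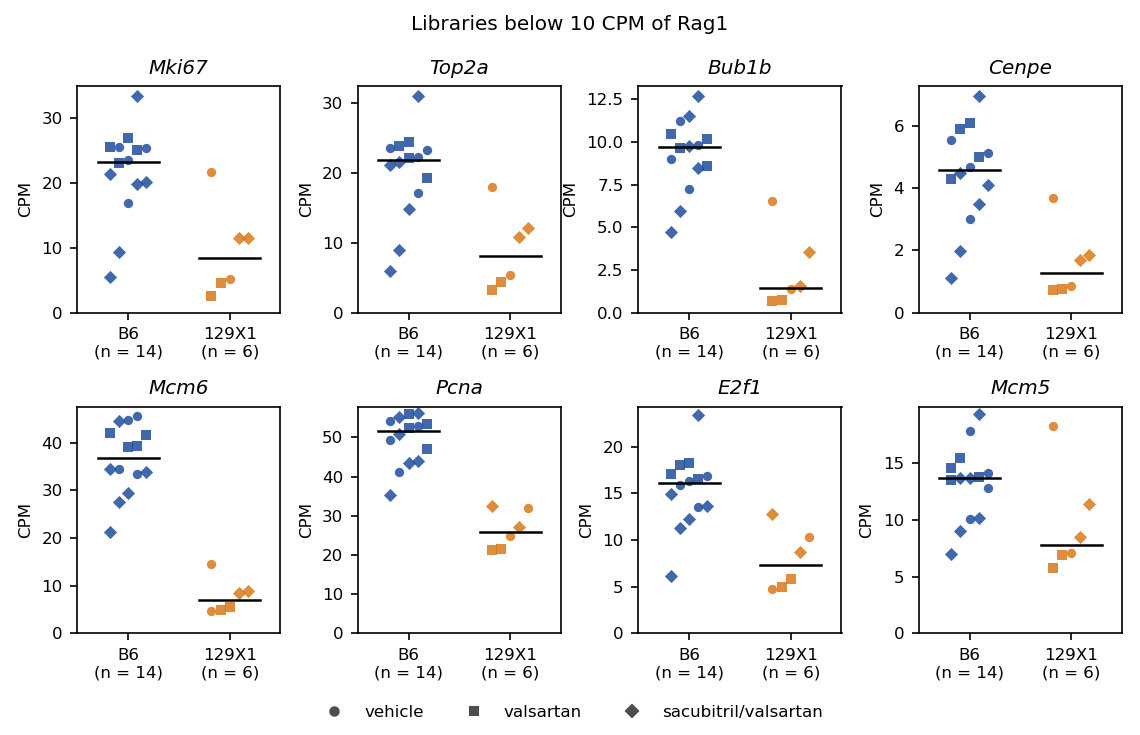
Level (CPM, axes from 0) of 8 members in the 20 libraries below 10 CPM of Rag1, by strain (B6 n = 14, 129X1 n = 6), with symbols for treatment and a bar at the median. Mcm6 and Pcna separate the strains completely, and Mcm5 and Mki67 overlap.

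Mitosis members fell more evenly. Bub1b (chr2:118598211-118641591) was at 0.664 to 6.53 CPM (median 1.45) in 129X1 and 4.70 to 12.7 CPM (median 9.74) in B6, a difference of -2.08 (SE 0.37, edgeR adjusted p = 0.00065). Only the highest 129X1 library, a Veh-T library, entered the B6 range. Cenpe was at 0.716 to 3.67 CPM (median 1.27) against 1.10 to 6.96 CPM (median 4.59), a difference of -1.54 (SE 0.37). Cenpa, the histone of centromeres, was at 2.80 to 10.2 CPM (median 6.66) against 6.67 to 17.1 CPM (median 13.0), a difference of -0.99 (SE 0.20). Mki67 fell by 1.28 (SE 0.37, edgeR adjusted p = 0.0163), with 2.56 to 21.7 CPM (median 8.36) in 129X1 and 5.42 to 33.4 CPM (median 23.3) in B6, and Top2a by 1.204 (SE 0.33, edgeR adjusted p = 0.0128). The fall of the 23 ranged from 0.74 for Aurka, a spindle pole kinase, to 2.08 for Bub1b. The mitotic driver Cdk1 fell by 1.31, its cyclins Ccnb1 and Ccnb2 by 1.31 and 1.23, the survivin gene Birc5 by 1.40 and the mitotic kinase gene Aurkb by 1.35. E2f1 fell by 0.94 (SE 0.24, edgeR adjusted p = 0.00894), from a B6 median of 16.1 CPM to a 129X1 median of 7.27 CPM.

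Summed over the 40 members, the level was 250 to 664 CPM (median 502) in B6 and 194 to 424 CPM (median 247) in 129X1. The ratio of S-phase to mitosis CPM was 1.06 to 3.05 (median 1.31) in B6 and 1.49 to 2.71 (median 1.97) in 129X1. Within B6, a Sac/val-T library (replicate 2) was highest for 35 of 40 members and another Sac/val-T library (replicate 1) lowest for 34. Within 129X1, a Veh-T library (replicate 2) was highest for 32 of 40. That library also had Ms4a1 at 35.2 CPM, against 0.0795 to 0.750 CPM in the B6 libraries of this class. The 2 Val-P libraries were lowest for 17 and 16 members.

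Macrophage markers, and markers of some other cell types, moved with the strain difference. By the same edgeR fit 6 of 7 were lower in 129X1, with a median of -1.199, among them Fcgr1 at -2.35, C1qb at -1.27, Adgre1 at -1.26 and C1qa at -1.199, and Cd68 at -1.02 did not pass (adjusted p = 0.0674). The summed list was at 670 to 1844 CPM (median 1524) in B6 and 330 to 900 CPM (median 713) in 129X1, and none of its defining genes was at 0. Adgre1 was at 46.1 to 149 CPM (median 106.2) in B6 and 20.8 to 63.8 CPM (median 43.9) in 129X1. Within B6, the library lowest for most members (Sac/val-T replicate 1) had the least Adgre1 (46.1 CPM). It also had the lowest summed fibroblast level of the 14 B6 libraries (4811 CPM) and the highest summed adipocyte (5029 CPM), skeletal muscle (17310 CPM) and sympathetic neuron and glomus cell (9757 CPM) levels. With log2 Adgre1 as a covariate, an alternative chosen after seeing the data, 2 of 40 members passed, Mcm6 at -1.63 (edgeR adjusted p = 1.9e-05) and Pcna at -0.46 (0.00274). The median of the members was then -0.03, Mki67 stood at -0.12 and Bub1b at -1.10 (edgeR adjusted p = 0.093). Adgre1 itself was lower in 129X1 (-1.26), so this fit cannot fully separate it from strain. The neutrophil gene S100a8 was also lower (-3.57), and the B-cell genes Ms4a1 and Cd79a were higher (2.38 and 2.06). For both B-cell genes 1 library, 129X1 Veh-T replicate 2, stood far above the rest, at 35.2 CPM (Ms4a1) and 33.6 CPM (Cd79a). The other 129X1 libraries of this class had 0.0572 to 1.91 CPM of Ms4a1 and 0.224 to 2.00 CPM of Cd79a. Summed adipocyte markers were at 2570 to 8195 CPM (median 5248) in 129X1 and 571.9 to 5029 CPM (median 2565) in B6, and 1 of 4 passed, Ucp1, higher by 1.66. Summed fibroblast markers were at 2930 to 17270 CPM (median 9084) in 129X1 and 4811 to 19970 CPM (median 13790) in B6, and all 4 estimates were below 0 with none passing. The medians of the summed skeletal muscle markers were 5396 CPM in 129X1 and 1971 CPM in B6, with 0 of 4 passing. Of the endothelial markers 1 of 4 was lower in 129X1 (Vwf). The part of these cell types, macrophages included, in the strain difference was not tested. The count of lower members ran from 18 without a 129X1 Val-P library (replicate 2) to 36 without a 129X1 Sac/val-P library (replicate 3), and Mki67 no longer passed without the former (edgeR adjusted p = 0.058, range 0.00246 to 0.058 over the 20 libraries left out in turn).

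Among cycle genes that are not members, 24 of 25 other mitosis genes and 9 of 22 other S-phase genes fell in 129X1 in the same libraries. Pttg1 (securin, which holds separase inactive until chromosomes part) was at 25.6 to 47.5 CPM in B6 and at 1.60 to 3.45 CPM in 129X1, the largest fall in these lists, a difference of -4.00 (SE 0.16, edgeR adjusted p = 3.75e-12). Espl1, which encodes separase, fell by 0.97 and Hmmr, a spindle protein, by 1.502. In S phase, Chaf1a, a histone chaperone, fell by 0.84 and Pole by 0.70. Of the 12 G1 genes 5 fell, among them Ccnd1, cyclin D1, by 1.08 (edgeR adjusted p = 0.000103) and Cdc25c by 1.72, and Cdc25a rose by 0.26. Of 13 pocket proteins and E2F factors, 4 fell and 3 rose, with E2f7 and E2f3 falling by 0.70 and 0.40 and Rb1, the retinoblastoma gene that restrains E2F, rising by 0.64. Of 7 CDK inhibitors only Cdkn2a rose (0.82, edgeR adjusted p = 0.0451), and none fell.

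Over all 36 libraries the strain difference had wider intervals. In the fit of 12 group means with edgeR's quasi-likelihood test, 1 of 40 fell and none rose, against 33.8% of genes in either direction and 17.5% lower. The member was E2f1, at 4.75 to 19.9 CPM (median 11.5) in 129X1 and 6.19 to 39.7 CPM (median 16.4) in B6, a difference of -0.66 (SE 0.17, edgeR adjusted p = 0.00321). Estimates were above 0 for 30 of 40, with a median of 0.15 and a median half-width of the 95% interval of 0.86. Mki67 was at 0.52 (95% interval -0.65 to 1.70), Top2a at 0.61 (-0.60 to 1.83), Mcm5 at 0.37 (-0.48 to 1.22) and Rrm2 at 0.65 (-0.46 to 1.76). With 1 library left out, the median ran from -0.049 (without 129X1 Val-T replicate 1) to 0.471 (without B6 Val-P replicate 1), and it was also below 0 without 129X1 Veh-P replicate 3 or Val-P replicate 3. Mki67 ran from 0.0055 (without 129X1 Val-P replicate 3) to 1.01 (without B6 Val-P replicate 1). Libraries at or above 10 CPM of Rag1 made up 12 of the 18 129X1 and 4 of the 18 B6 libraries. With log2 Rag1 as a covariate, all 40 estimates were below 0 and 17 members fell (median -0.65), and Mki67 turned to -0.69 (edgeR adjusted p = 0.0918). That covariate was a single straight slope over all 36 libraries. The members rose with Rag1 at or above 10 CPM but did not follow it below, so this fit cannot fully separate thymus transcripts from strain. The difference between the strain effects of the 2 Rag1 classes was not tested.

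**Figure D4:**
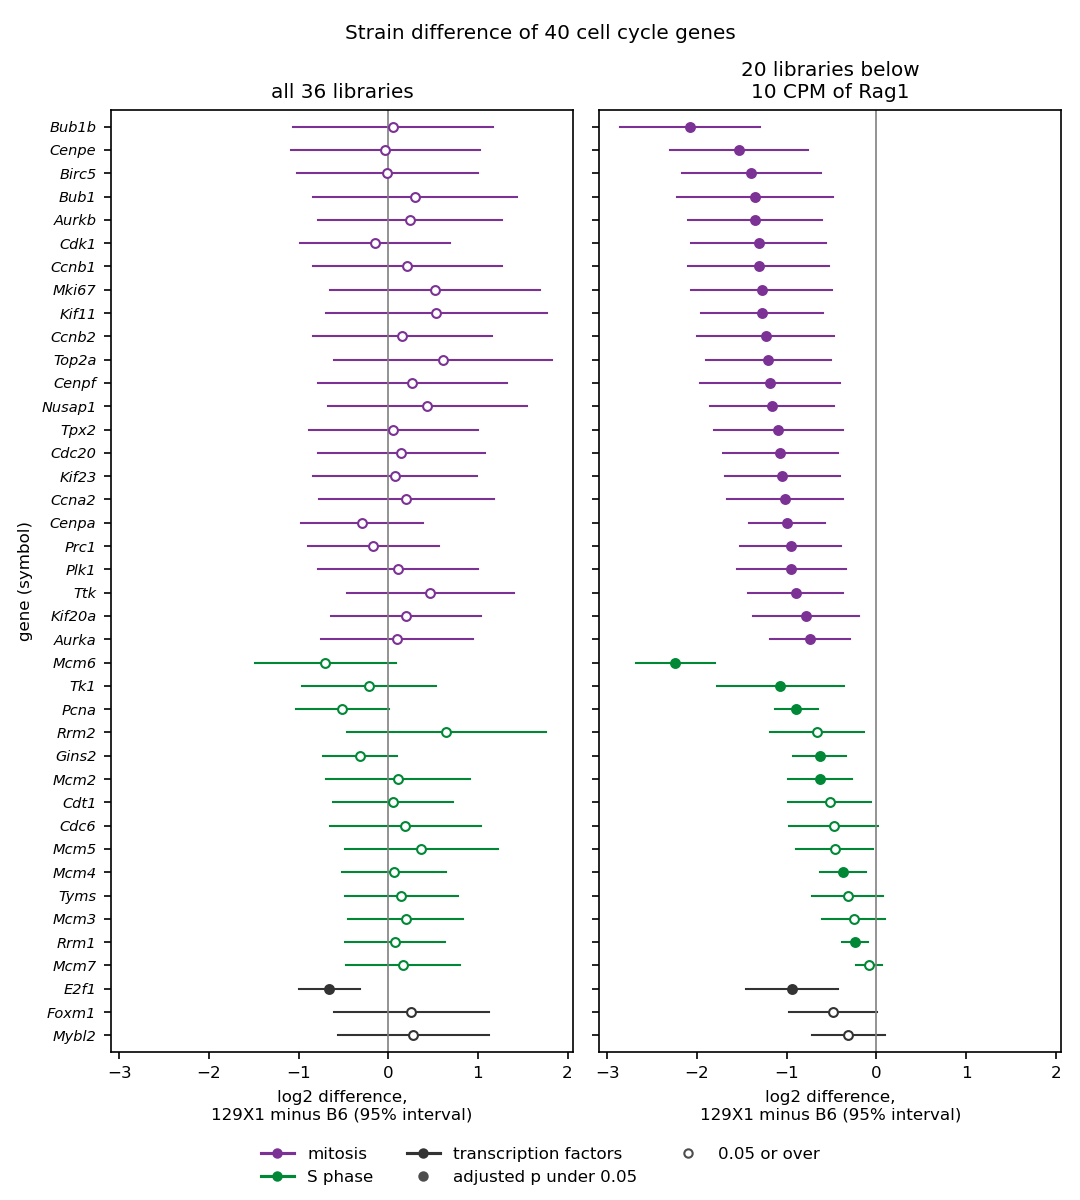
Difference between strains (129X1 minus B6, log2 units, with 95% intervals) for the 40 members in all 36 libraries (left) and in the 20 below 10 CPM of Rag1 (right), filled where the adjusted p was under 0.05 and coloured by mitosis, S phase and transcription factor. Only E2f1 is filled on the left, where 30 points lie above 0. On the right all 40 lie below 0 and 31 are filled.

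Under vehicle alone no member passed (edgeR quasi-likelihood, DESeq2 0, 1 under an unadjusted p of 0.05), while 13.5% of genes did. E2f1 came nearest, at 4.75 to 13.9 CPM (median 10.8) in 129X1 and 12.7 to 25.4 CPM (median 16.1) in B6, a difference of -0.73 (SE 0.29, edgeR adjusted p = 0.0899). It passed with log2 Rag1 as a covariate. The ranges overlapped between 12.7 and 13.9 CPM. Mki67 was at 0.82 (SE 0.99), Top2a at 0.91 (SE 1.03), Mcm5 at 0.52 (SE 0.72) and Rrm2 at 0.79 (SE 0.94), with a median half-width of 1.49 over the members, so changes under about that size could not be seen. Outside the members, Pttg1 (-2.46), Anln (-0.46), Ccnd1 (-1.17) and Ccnd2 (-0.63) fell in 129X1 over all 36 libraries and Cdkn2a (0.59), Rb1 (0.57) and E2f6 (0.38) rose. At equal Rag1 in the 16 libraries Pttg1 stood at -1.43 (edgeR adjusted p = 0.00555), Ccnd1 at -0.91 and Ccnd2 at -0.95, and these fell there too.

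No member passed the test for either drug, whether the 16 libraries high in Rag1 were kept or left out. Over all 36 libraries edgeR's quasi-likelihood test called 0 members and 0% of genes for Sac/val minus vehicle. The same held for Val minus vehicle (0%) and for the 2 drugs against each other (Sac/val minus Val, 0%), with 0 members under an unadjusted p of 0.05 and 0 by DESeq2 in each. Over all genes, 293, 453 and 491 were under an unadjusted p of 0.05 and DESeq2 called 10, 2 and 17. These 3 contrasts share libraries. For Sac/val minus vehicle 37 of 40 estimates were below 0 (median -0.19), with Kif11 at -0.60 (SE 0.74), Mki67 at -0.56 (95% interval -1.998 to 0.88), Top2a at -0.58, Mcm5 at -0.29 and Rrm2 at -0.30. For Val minus vehicle all 40 were above 0 (median 0.45), with Tyms at 0.46 (SE 0.38), Mki67 at 0.60 (-0.84 to 2.04), Top2a at 0.56, Mcm5 at 0.41 and Rrm2 at 0.74. For Sac/val minus Val all 40 were below 0 (median -0.65), with Kif11 at -1.23 (SE 0.75, edgeR adjusted p = 0.908), Mki67 at -1.15 (-2.61 to 0.30), Top2a at -1.14, Mcm5 at -0.70 and Rrm2 at -1.04. Per group Mki67 ran from 5.27 to 217 CPM (median 35.5) under vehicle, 2.56 to 597 CPM (median 26.3) under Val and 5.42 to 198 CPM (median 20.8) under Sac/val. The treatments overlapped over nearly their whole range. Without the B6 Val-P library with the highest Rag1 (replicate 1), the median for Val minus vehicle was -0.141 and Mki67 was at -0.19, both of the other sign. Without it the median for Sac/val minus Val was -0.0682, Kif11 was at -0.29 and Mki67 at -0.35. The median for Sac/val minus vehicle turned to 0.0392 without 129X1 Veh-P replicate 3 and was also above 0 without B6 Veh-T replicate 2. With log2 Rag1 as a covariate Sac/val minus Val was 0.09.

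No member passed the test of a difference in drug effect between the strains either. For Sac/val the effect in 129X1 minus that in B6 had 0 members called and 0% of genes by edgeR's quasi-likelihood test (651 genes under an unadjusted p of 0.05, DESeq2 5), and for Val 0 members and 0% (960 and 15). No member was under an unadjusted p of 0.05 or called by DESeq2 in either. The member median was 1.36 for Sac/val, with all 40 above 0, and -1.80 for Val, with all 40 below 0, and the half-widths of the intervals were 2.11 and 2.12. E2f1 was at 0.70 (SE 0.41) for Sac/val, and Kif11 at -2.91 (SE 1.496, edgeR adjusted p = 0.633) for Val. Mki67 was at 1.56 (SE 1.41) and -2.44 (SE 1.42), Top2a at 1.73 and -2.62, Mcm5 at 1.34 and -1.78, and Rrm2 at 1.99 and -2.41. Without B6 Val-P replicate 1, the median for Val was -0.614, Kif11 was at -1.05 and Mki67 at -0.86, and without 129X1 Val-P replicate 3, Kif11 was at -4.20 and Mki67 at -3.99. The median for Sac/val ran from 0.839 (without B6 Veh-T replicate 2) to 1.93 (without 129X1 Veh-P replicate 3). Rag1 was at or above 10 CPM in 0 of 6 B6 and 4 of 6 129X1 libraries under Sac/val, and in 2 of 6 and 4 of 6 both under Val and under vehicle. Its part in these estimates was not tested.

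In the 20 libraries below 10 CPM of Rag1, where intervals were narrower, edgeR's quasi-likelihood test again called 0 members for Sac/val minus vehicle (0% of 16865 genes), for Val minus vehicle (0%) and for Sac/val minus Val (0%), and DESeq2 called 0 members in each. Over all genes 498, 1374 and 1129 were under an unadjusted p of 0.05, and DESeq2 called 1, 23 and 2. Mki67 in B6 was at 17.0, 23.5, 25.4 and 25.5 CPM under vehicle, at 23.1, 25.2, 25.5 and 27.0 CPM under Val, and at 5.42 to 33.4 CPM (median 19.98) in the 6 Sac/val libraries. In 129X1 it was at 5.27 and 21.7 CPM under vehicle, 2.56 and 4.52 CPM under Val, and 11.5 CPM in both Sac/val libraries. Both ends of the B6 range were Sac/val libraries, so the treatments overlapped. Sac/val minus vehicle gave 40 estimates below 0, with a median of -0.26 and a half-width of 0.60. Mki67 was at -0.37 (95% interval -1.16 to 0.43), Top2a at -0.30, Mcm5 at -0.28 and Rrm2 at -0.18. Mcm7, at -0.16 (SE 0.07), was the 1 member under an unadjusted p of 0.05 (edgeR adjusted p = 0.998).

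Val minus vehicle gave 39 estimates below 0 (median -0.21, half-width 0.65), with no member under an unadjusted p of 0.05. Mki67 was at -0.37 (-1.23 to 0.50), Top2a at -0.36, Mcm5 at -0.23, Rrm2 at -0.18 and Mcm7 at -0.15 (SE 0.08, edgeR adjusted p = 0.683). The exception was Prc1, which bundles the microtubules of the dividing spindle, at 0.55 (SE 0.30). Prc1 was at 13.8 to 18.1 CPM under Val, 3.89 to 17.5 CPM under vehicle and 4.46 to 22.8 CPM under Sac/val. It was also the 1 member under an unadjusted p of 0.05 for Sac/val minus Val, at -0.68 (SE 0.28, edgeR adjusted p = 0.615). The other estimates of that contrast centred on 0, with a median of -0.02 and a half-width of 0.64, Top2a at 0.06 (-0.67 to 0.79) and Mcm5 at -0.05 (-0.51 to 0.42). Mki67 and Rrm2 had estimates of -0.00037 and -0.00027.

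**Figure D5:**
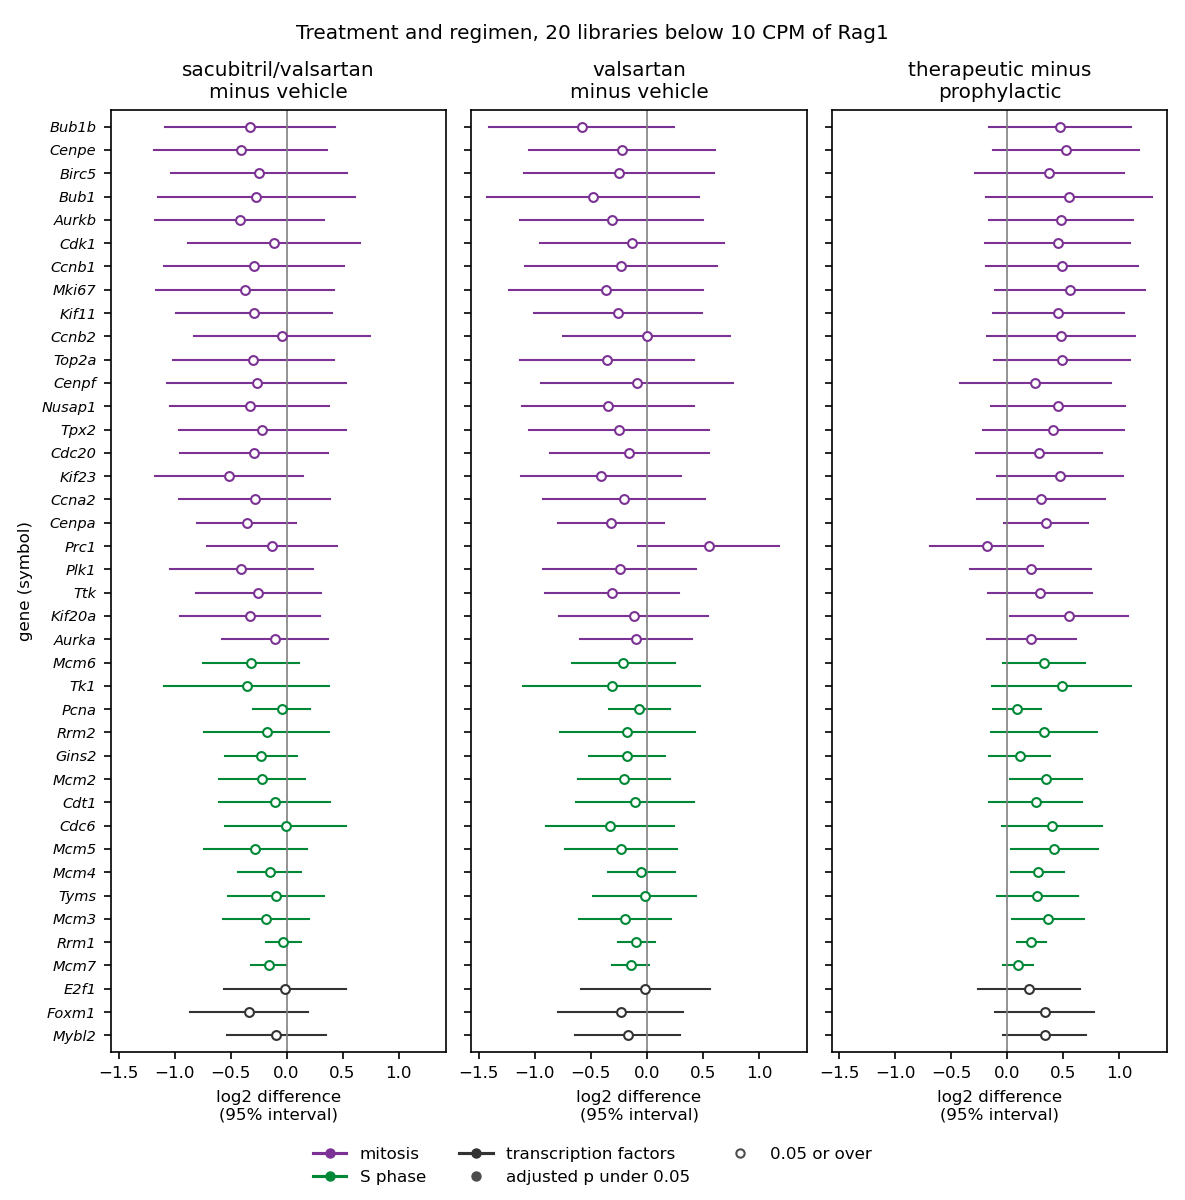
Differences (log2 units, with 95% intervals) of the 40 members in the 20 libraries below 10 CPM of Rag1 for Sac/val minus vehicle (left), Val minus vehicle (middle) and therapeutic minus prophylactic (right), on one scale. No point is filled, and 40, 39 and 1 of the points lie below 0.

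The therapeutic regimen, begun a week after ligation, was set against the prophylactic one. Over all 36 libraries edgeR's quasi-likelihood test called 0 members and 0% of genes (599 genes under an unadjusted p of 0.05, DESeq2 21), with 0 members under an unadjusted p of 0.05 and 0 by DESeq2. All 40 estimates were above 0 (median 0.43), with Gins2 at 0.28 (SE 0.20), Mki67 at 0.46 (95% interval -0.72 to 1.63), Top2a at 0.49, Mcm5 at 0.52 and Rrm2 at 0.62. In the 20 libraries below 10 CPM of Rag1, 0 members and 0.00593% of genes (1 gene) passed, with 6 members under an unadjusted p of 0.05 and 0 by DESeq2 (over all genes 2301 and 49). Estimates were above 0 for 39 of 40 (median 0.34, half-width 0.51). Rrm1, the constant subunit of ribonucleotide reductase, had the smallest p, at 33.7 to 38.9 CPM (median 36.5) in 8 therapeutic and 22.4 to 38.4 CPM (median 30.6) in 12 prophylactic libraries. Its difference was 0.21 (SE 0.06, edgeR adjusted p = 0.266), and the ranges overlapped above 33.7 CPM. Mki67 was at 5.42 to 33.4 CPM (median 23.4) against 2.56 to 25.5 CPM (median 18.4), a difference of 0.56 (SE 0.32, edgeR adjusted p = 0.468). Top2a was at 0.49 (SE 0.29), Mcm5 at 0.42 (SE 0.18) and Rrm2 at 0.32 (SE 0.22).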

How the data were processed

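RNA from 36 ligated carotid arteries, 3 per group, was sequenced as stranded mRNA libraries (TruSeq), per the labels. Trimmomatic 0.36 was used by the authors to trim reads, which they aligned to GRCm38 with STAR 2.5.2b and counted per gene symbol with featureCounts of Subread 1.5.0p3, per the submitters' processing notes. The annotation release and the strand setting are not given in the sources used here. GRCm38 is C57BL/6J sequence, and how well 129X1 reads align to it was not examined. The labels say that mice were divided into groups and each title holds a number of its own, but they do not say what the number stands for or whether a library was 1 mouse, so p-values measure the spread between these libraries.

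The deposited counts (18.96 M to 28.97 M per library) were analysed with edgeR 4.0.16 in R 4.3.3. Genes were kept by filterByExpr, libraries were scaled by TMM (factors 0.82 to 1.13), and quasi-likelihood F tests were adjusted by Benjamini-Hochberg over all genes tested, with a limit of 0.05. The 3 fits were 12 group means (36 libraries, 24 residual degrees of freedom), additive terms of strain, regimen and treatment in the 20 libraries below 10 CPM of Rag1 (15), and strain plus log2 Rag1 in the 16 others (13) and, for the slope, in the 20. Rag1 had 0.1 CPM added before the log2 where it was a term below 10 CPM or a covariate. Standard errors were derived from the F values. CPM scaled with and without TMM put 36 of 36 libraries in the same class.

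The 40 members and the lists were chosen with earlier results of these data known. Mki67, Top2a, Mcm5 and Rrm2 were named in every comparison, with up to 6 further members of the smallest p, and per other list up to 3 that passed; some genes are not reported here. Other members and markers named were chosen after their values were seen. Alternatives were the DESeq2 1.42.0 Wald test, DESeq2 size factors, no filter, each library left out, log2 Rag1, Ms4a1 or Adgre1 as covariates, the number in the titles, only the vehicle libraries, and Rag1 limits of 3 and 30 CPM. The strain comparison at equal Rag1, the Adgre1 covariate and the slope without libraries over 10 CPM of Ms4a1 were added after seeing the data. The fits were tested on simulated counts. Gene coordinates follow GENCODE M21 and promoter windows RefSeq, both on GRCm38.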

Additional observations from a re-analysis of the deposited data

Results flagged for a closer look

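In the 6 B6 vehicle libraries, 1 Veh-T library (replicate 2, with Rag1 at 755 CPM) lay far above the other 5 for 19 members, by a gap that was large against the whole range of the 6. These 19 were the members named in the comparisons, and the other members were not examined in this way. Some of those had a gap too, such as Ccna2 at 97.1 CPM against 22.6 CPM in the next library. Its levels, each followed by the next highest library, were for mitosis genes 217 and 45.5 CPM (Mki67), 244 and 44.8 CPM (Top2a), 85.9 and 16.5 CPM (Kif11), 62.5 and 14.0 CPM (Bub1b), 44.3 and 15.7 CPM (Cenpa), 29.6 and 5.55 CPM (Cenpe), 51.1 and 17.5 CPM (Prc1), 27.5 and 5.26 CPM (Bub1), 34.7 and 8.27 CPM (Cenpf), and 37.0 and 10.9 CPM (Kif20a). For S-phase genes they were 91.7 and 24.3 CPM (Mcm5), 115 and 28.5 CPM (Rrm2), 32.3 and 12.6 CPM (Tyms), 9.58 and 5.92 CPM (Gins2), 134 and 52.4 CPM (Mcm6), 145.2 and 62.9 CPM (Pcna), 112.8 and 39.7 CPM (Mcm7), and 116.6 and 47.4 CPM (Rrm1). E2f1 was at 25.4 CPM in it and at 16.9 CPM in the next. Of 76 pairs of a gene and a group examined, 19 met this criterion, all in this library. Chance meets it in about 1 in 20 groups, and the genes were read in the same library, so the 19 are not separate observations.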

How the results depend on the processing

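DESeq2, its size factors in edgeR, no filter and the number in the titles kept every count of members within 1.5 times, and so did only the vehicle libraries for the strain comparison there. The covariates did not. Log2 Rag1 entered as a single straight slope, although the members followed Rag1 only at or above 10 CPM. It therefore cannot fully separate thymus transcripts from strain, drug or regimen. With log2 Rag1, strain over all libraries had 17 members, Mki67 -0.69, Top2a -0.63, Mcm5 -0.27 and Rrm2 -0.31, and strain under vehicle had 3, with -0.71, -0.74, -0.33 and -0.50. With Ms4a1 added these were 18, with -0.82, -0.71, -0.33 and -0.38, and 3, with -0.82, -0.80, -0.41 and -0.58. Drug and regimen estimates over all libraries that changed sign with log2 Rag1, and then with Ms4a1 added, were Rrm2 at 0.026 and 0.065 for Sac/val minus vehicle, Mki67 at -0.22 and -0.17, Top2a at -0.28 and -0.24 and Mcm5 at -0.070 and -0.016 for Val minus vehicle (Rrm2 at -0.012 with Rag1 only), Mki67 at 0.092 and 0.094, Top2a at 0.16 and 0.15, Rrm2 at 0.038 and 0.028 and Kif11 at 0.056 and 0.050 for Sac/val minus Val, and Mki67 at -0.078 and -0.059, Top2a at -0.10 and -0.091 and Rrm2 at -0.062 and -0.060 for regimen.

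Below 10 CPM of Rag1, log2 Adgre1 left 2 members lower in 129X1, with Mcm5 at 0.22 and Rrm2 at 0.11, and other limits of Rag1 gave 33 (3 CPM) and 29 (30 CPM). Adgre1 itself differed by strain, so the fit with it cannot fully separate it from strain. Sac/val minus Val for Mki67 and Rrm2, near 0 to begin with, was 0.018 and 0.0044 with DESeq2, 0.0058 and 0.0049 with its size factors, 0.024 and 0.0077 with Rag1 and Ms4a1 and 0.34 and 0.17 under 3 CPM, where Mcm5 was at 0.058. Under 30 CPM, Top2a was at -0.14 in that contrast and Rrm2 at 0.030 for Val minus vehicle. The slope of Mki67 with log2 Ms4a1 was -0.0005.

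Leaving out 1 library gave 18 to 36 lower members in 129X1 below 10 CPM, 0 to 1 for strain under vehicle (1 without B6 Val-P replicate 1) and 0 to 1 for strain at equal Rag1 (1 without 129X1 Val-T replicate 1). Signs changed within these ranges: over all libraries, Rrm2 -0.44 to 0.043 for Sac/val minus vehicle, and Mki67 -0.19 to 0.98, Top2a -0.31 to 0.98, Mcm5 -0.20 to 0.66 and Rrm2 -0.085 to 1.07 for Val minus vehicle, the lowest without B6 Val-P replicate 1; below 10 CPM, Rrm2 -0.36 to 0.039 for Sac/val minus vehicle, and Mki67 -0.19 to 0.17, Top2a -0.13 to 0.22, Mcm5 -0.19 to 0.067 and Rrm2 -0.17 to 0.13 for Sac/val minus Val, with the slope of Mki67 at -0.003 to 0.061; at equal Rag1, Mki67 -0.088 to 0.36, Mcm5 -0.13 to 0.28 and Rrm2 -0.058 to 0.35. None of the values with a changed sign passed the test. The cause was not tested. No paired analysis was possible because the labels give no replicate numbers that pair libraries across groups. Few libraries limit the strain comparisons (6 of 129X1 below 10 CPM, 4 of B6 above), and low members rest on few counts, such as 7 for Bub1 and 14 for Bub1b in 129X1 Val-P replicate 1.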
